A study of Homo sapiens with 6 samples.

Results

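PEG3 (ENSG00000198300.14) is an imprinted gene on the minus strand of chromosome 19, at chr19:56810077-56840728 in hg38. It was examined here as a single RNA in HepG2 chromatin-associated RNA (caRNA). Members were chosen by position alone: every listed minus-strand position between those coordinates was kept. The table for imbalanced dNTP held 837 such positions of 176343 in all, and the table for balanced dNTP held 712 of 246881, with 51 positions in both. HepG2 is an established human liver cancer cell line, and caRNA is the RNA that stays with chromatin when nuclei are fractionated, so it holds nascent and intron-containing transcripts. The 6 libraries came from 3 biological replicates of untreated HepG2 cells, and the ligated RNA of each replicate was shared between both reactions. In the imbalanced reaction, reverse transcriptase was given 1 mM dATP with 2 µM of each other dNTP, whereas in the balanced reaction it was given 1 mM of each and served as the input. No genotype, drug or time point separated the samples.

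PEG3 encodes a large zinc finger protein and is transcribed from the paternal allele. Its promoter lies in a maternally methylated CpG island that it shares with ZIM2, a zinc finger gene on the same strand, and the noncoding MIMT1 and the ubiquitin peptidase gene USP29 belong to the same imprinted domain on the other strand. 2′-O-methylation (Nm) adds a methyl group to the ribose of any nucleotide, and fibrillarin is the best known enzyme that installs it. When dATP is in excess, reverse transcriptase tends to place A opposite a methylated G, A or C, and the position is then read as T. Nm-mut-seq therefore uses the mutation ratio, the share of reads with T at a position whose reference base is G, A or C. A methylated U cannot be seen in this way.

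A called site had to be covered by 10 or more reads, with at least 3 reads with T and a mutation ratio over 3 times that of the same-numbered balanced library, in all 3 replicates. These are the study's criteria without its spike-in background, which was not applied here. PEG3 held 12 called sites. Their sequences are shown because all comparisons of position and sequence context rest on them. Each line gives 21 bases of hg38 on the transcribed strand, 5′ to 3′, with the called base in the centre of the 3 capital letters and T standing for U in the RNA.
Site 1, intron 2, chr19:56834060-56834080: agctttattTGTcttgaacca
Site 2, intron 2, chr19:56833167-56833187: tgcatcagaTGGgatgtggga
Site 3, intron 2, chr19:56832382-56832402: cttgatgcgTGTtagccccct
Site 4, intron 2, chr19:56827445-56827465: agtttcctcTGCcatggtggg
Site 5, intron 2, chr19:56827150-56827170: tctcttttcTGTgctctggaa
Site 6, intron 2, chr19:56826836-56826856: ataagggaaTGTtagttttat
Site 7, exon 10, coding sequence, chr19:56815520-56815540: ctctatgaaTGTcaggagtgt
Site 8, exon 10, 3′ UTR, chr19:56813122-56813142: gatttattgTGCattatttga
Site 9, exon 10, 3′ UTR, chr19:56813056-56813076: aaatagtctTGTgaagctgta
Site 10, exon 10, 3′ UTR, chr19:56812904-56812924: ttggcttttTGTgacccagat
Site 11, exon 10, 3′ UTR, chr19:56812832-56812852: ttacacattTGTgttctgggt
Site 12, exon 10, 3′ UTR, chr19:56812734-56812754: ttacatcttTGCctttaaaga

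All 12 called bases were G, and all 12 had U on the 5′ side. G was also the most frequent called base elsewhere: where the lowest depth over the imbalanced libraries was 10 to 27 reads, as in PEG3, it made up 72.8% of the 1975 called sites of the series. On the 3′ side, 8 had U, 3 had C and 1 had G. U on the 5′ side was found at 34.8% of all G in the gene and at 85.1% of the G listed under imbalanced dNTP, so it was already common among G positions that gained at least 3 reads with T in any library.

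Liver genes and markers of other cells were looked at first. Of 10 liver genes, 8 had positions listed under imbalanced dNTP and 6 had called sites, among them ALB and AFP, the serum proteins of adult and fetal liver. FGB had 0 listed positions in either table, TTR had 0 under imbalanced dNTP, and APOA1 and FGA had listed positions but 0 called sites. Over the series, 341 of 2026 protein-coding genes with a listed position had a called site. Of 5 markers of blood, stromal or endothelial cells (PTPRC, HBB, COL1A1, PECAM1 and VIM), 0 had a listed position in either table. The share of all annotated genes with a listed position was not computed. The counts of 8 of 10 and 0 of 5 thus have no background and do not by themselves identify the cells. Over all listed positions of the series, the summed depth was 17063930 to 22485865 bases per imbalanced library and 22974020 to 34367262 per balanced library. PEG3 took 0.0623% to 0.0780% of the former and 0.0489% to 0.0580% of the latter. In bulk libraries, fewer cells that express PEG3 and less PEG3 RNA per cell cannot be told apart.

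Coverage of PEG3 was shallow in every library. At the 837 positions listed under imbalanced dNTP, the median depth was 14, 12 and 20 reads in replicates 1, 2 and 3, and at the 712 positions listed under balanced dNTP it was 23, 15 and 22. The replicate 2 libraries were the shallowest in both groups. Depth is known only at listed positions. The tables listed a position of PEG3 under imbalanced dNTP only where at least 1 library had 3 reads with T, and under balanced dNTP where at least 1 library had 1, always at a depth of at least 5. By this listing, a T share over listed positions falls as depth rises, and a position not listed under balanced dNTP was given an input ratio of 0.

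Both exons and introns of PEG3 were covered. With the exons of the MANE Select transcript (ENST00000326441.15; 10 exons, 9 introns), 383 of the positions listed under imbalanced dNTP were exonic and 454, or 54.2%, were intronic. Introns made up 71.4% of the span. The listed share of G, A and C positions was 5.96% in exons and 2.95% in introns under imbalanced dNTP, and 4.73% in exons and 2.65% in introns under balanced dNTP. As classes, exonic positions were thus listed more densely than intronic ones in both tables. However, exon 10 and intron 2, which held most of the listed positions, were nearly level. Under imbalanced dNTP, 6.12% of G, A and C positions were listed in exon 10 and 6.03% in intron 2. Under balanced dNTP, these shares were 4.41% and 4.68%. Introns with few or 0 listed positions, given below, lower the intronic share.

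The intronic signal was uneven along the gene. Intron 2, the longest at 9554 nt, held 385 listed positions, or 84.8% of the intronic ones, and exon 10, which carries most of the coding sequence and the 3′ UTR, held 332, or 86.7% of the exonic ones. Intron 1, 4477 nt long, held 0 under imbalanced dNTP and 2 under balanced dNTP, of 3393 G, A and C positions. Intron 2, just downstream of it, had 6.03% of such positions listed under imbalanced dNTP and 4.68% under balanced dNTP. Intron 3 held 47 listed positions and intron 7 held 22, while introns 4, 5, 6, 8 and 9 held 0 under imbalanced dNTP and 0, 1, 7, 9 and 1 under balanced dNTP. The 2 balanced positions of intron 1 had median depths of 9, 6 and 5.5 reads, against 23, 15 and 23 in intron 2. The gene map shows this gap in the first intron and the block of positions in intron 2 and exon 10.

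**Figure D1:**
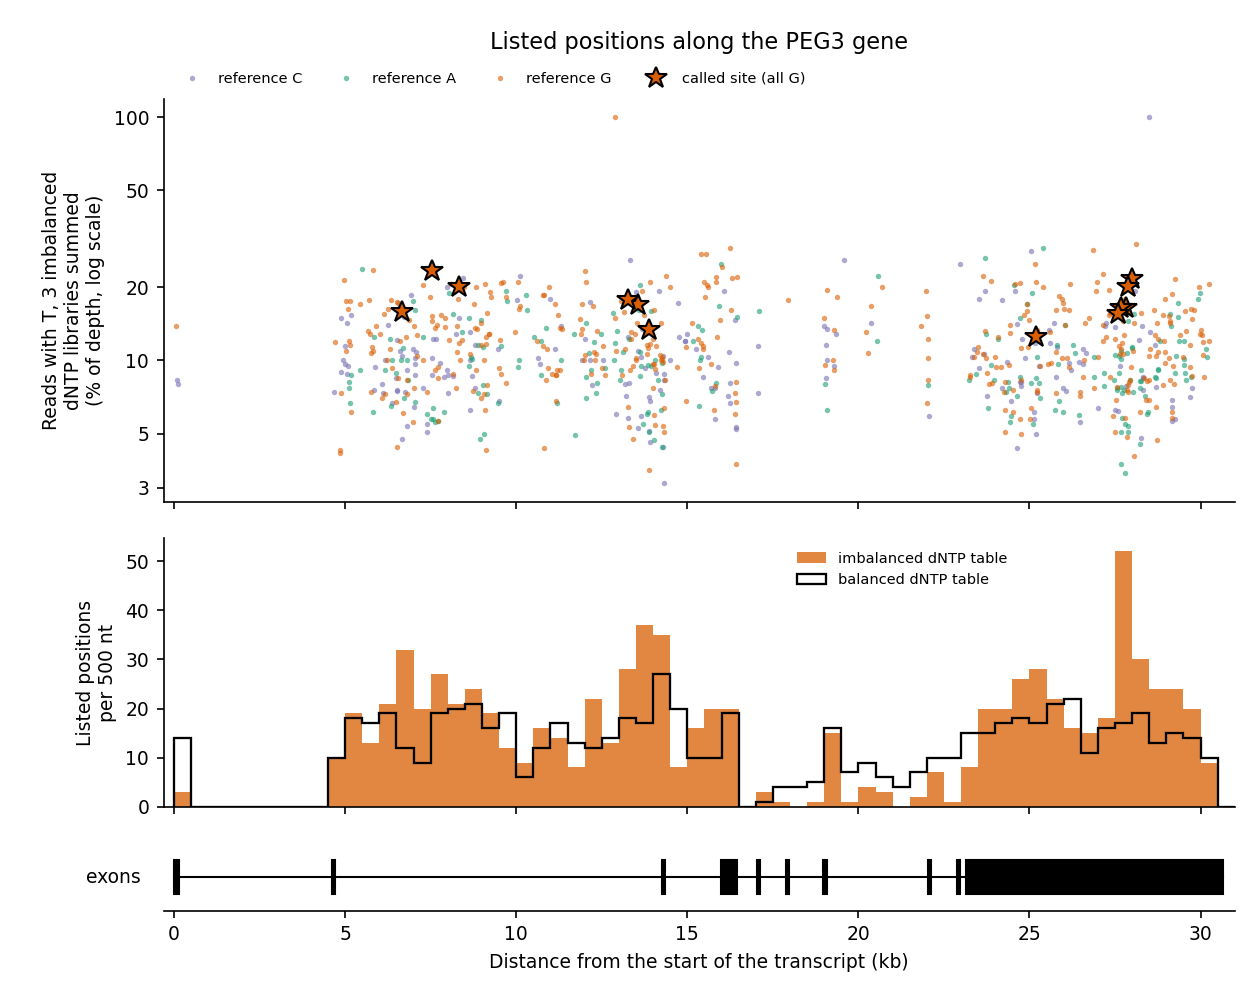
Positions along PEG3 by distance from the transcript start in kb. Top, the share of reads with T over the 3 imbalanced dNTP libraries summed (percent of depth, log scale) at the 837 listed positions, coloured by reference base, with the 12 called sites as stars; middle, listed positions per 500 nt under imbalanced (filled) and balanced (line) dNTP; bottom, the 10 exons of the MANE Select transcript as boxes. Intron 1 has no listed position under imbalanced dNTP, and the called sites lie in intron 2 and exon 10.

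Among positions listed under imbalanced dNTP, median depth was 15, 13 and 22 reads in exons and 14, 12 and 19 in introns for replicates 1, 2 and 3. Exons were deeper in each of the 3 libraries, by 1.67 ± 1.15 reads (SD, n = 3). The exact paired permutation test gave p = 0.25 (two-sided), which is the smallest value that 3 pairs allow, so no comparison made with this test can pass 0.05. Under balanced dNTP, the medians were 25, 17 and 24 in exons and 22, 13 and 20 in introns. Intronic depth was thus close to exonic depth where positions were listed, although the introns without listed positions do not enter these medians.

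The count of positions with at least 3 reads with T separated the reactions in every pair. Under imbalanced dNTP, 274, 220 and 475 PEG3 positions reached this count in replicates 1, 2 and 3. Under balanced dNTP, 2 positions did so in each library, and they were the same 2. The mean difference was 321 ± 134 positions (SD, n = 3), with imbalanced higher in 3 of 3 pairs (exact paired permutation test, two-sided, p = 0.25). Any position with 3 reads with T and sufficient depth would be listed in either table, so this count does not depend on the different listing of the tables. Reads with a base other than T or the reference made up 0.263% ± 0.0279 of the depth under imbalanced dNTP and 0.258% ± 0.0487 under balanced dNTP (SD, n = 3). Over all listed positions, these other mismatches overlapped between the reactions. At the 51 positions listed in both tables they were higher under imbalanced dNTP in each pair, with 0.643%, 0.304% and 0.368% against 0.386%, 0.0991% and 0.279% in replicates 1, 2 and 3, although the ranges overlapped.

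The 2 positions with at least 3 reads with T under balanced dNTP differed from all others. At chr19:56812239, a C in the 3′ UTR, T made up 97.6%, 96.7% and 100% of the reads in the balanced libraries and 100% in each imbalanced library, at depths of 15 to 41. At chr19:56827839, a G in intron 2, all reads carried T in all 6 libraries, at depths of 13 to 20. Neither was a called site, because the ratio was not raised over the input. Of the other 710 positions listed under balanced dNTP, 699 had at most 1 read with T in any library and 11 had at most 2.

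By reference base, G dominated the imbalanced table. It held 422 G, 210 A and 205 C positions of PEG3, and the balanced table held 261 G, 247 A and 204 C. Of all G in the gene, 5.51% were listed under imbalanced dNTP, compared with 2.68% of A and 3.22% of C. Under balanced dNTP, the shares were 3.41%, 3.16% and 3.21%, nearly level over the bases. In exons, 9.25% of G were listed under imbalanced dNTP, and in introns 4.13%.

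The T share of listed positions was also highest at G. It was 11.8%, 12.3% and 12.3% at G in the 3 imbalanced libraries, with a mean of 12.1% ± 0.276 (SD, n = 3). At A it was 8.94%, 8.65% and 10.8%, and at C it was 10.3%, 9.62% and 10.3%. G was higher than A in 3 of 3 libraries, by 2.68 ± 1.13 percentage points, and higher than C in 3 of 3, by 2.06 ± 0.614 (SD, n = 3; exact paired permutation test, two-sided, p = 0.25 for each). Without the 2 positions of high T under balanced dNTP, the means were 11.97% at G, 9.47% at A and 9.60% at C. Under balanced dNTP, the means without these positions were 1.62%, 1.77% and 1.67%, so the bases were level there.

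Exonic and intronic positions had similar T shares. Under imbalanced dNTP, the share was 10.4%, 10.7% and 11.2% in exons and 11.2%, 10.9% and 11.7% in introns for replicates 1, 2 and 3. Exons were lower in 3 of 3 libraries, but the difference of -0.51 ± 0.259 percentage points (SD, n = 3) could not pass the test (exact paired permutation test, two-sided, p = 0.25), and the ranges of both classes overlapped. With the mean of the ratios of single positions in place of summed reads, exons were lower in 2 of 3 libraries. Exons were also deeper in each library, and the part of depth in this difference was not tested. At G, the exonic shares of 11.1%, 12.1% and 11.8% lay below the intronic shares of 12.5%, 12.6% and 12.7%, with no overlap. The intronic values include the G with all reads at T, and without it they were 12.1%, 12.2% and 12.4%, so that the ranges met at 12.1%. At A, exons were lower in 3 of 3 libraries (9.29% against 9.65% in the mean, a difference of -0.36 percentage points). At C, exons were higher in 3 of 3 libraries, with 10.6%, 9.77% and 10.5% against 10.1%, 9.49% and 10.2%, but without the high-T C in the 3′ UTR the means were 9.25% in exons and 9.92% in introns. The plot of T share by base shows the values without both such positions.

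**Figure D2:**
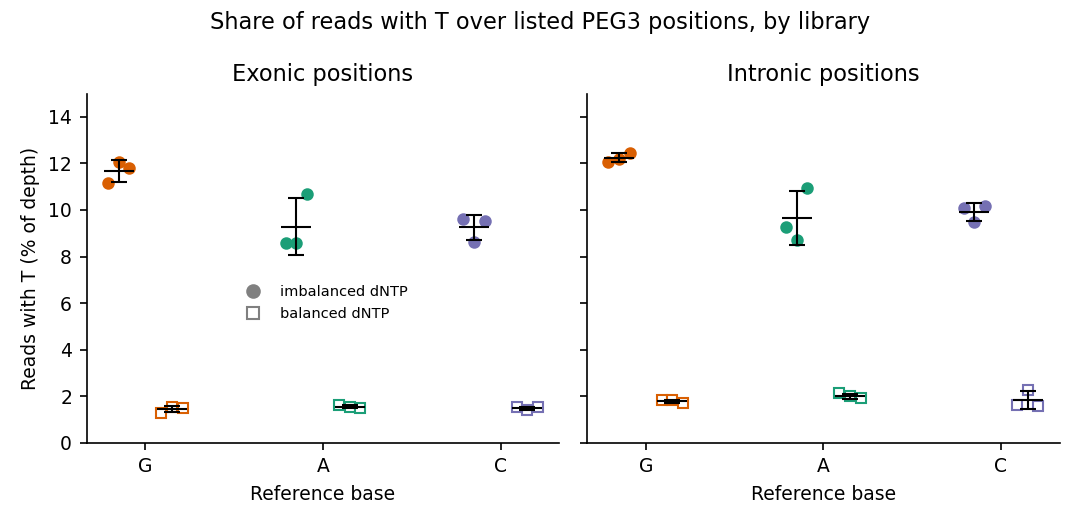
Share of reads with T (percent of depth) over listed PEG3 positions by reference base, for exonic (left) and intronic (right) positions, without the 2 positions of high T under balanced dNTP. Filled circles are the 3 imbalanced dNTP libraries and open squares the 3 balanced ones, with the mean and SD in black; under imbalanced dNTP, G lies above A and C in both classes.

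At the 51 positions listed in both tables, both reactions could be compared base by base. The T share was 14.5%, 17.4% and 13.7% under imbalanced dNTP and 5.60%, 5.85% and 4.75% under balanced dNTP. The difference was 9.79 ± 1.48 percentage points (SD, n = 3), higher in 3 of 3 pairs (exact paired permutation test, two-sided, p = 0.25). Without the 2 positions of high T, the means were 11.8% ± 1.60 and 1.36% ± 0.408. Entry to the imbalanced table took 3 reads with T in a library and entry to the balanced table took 1, so some of this difference is set by the listing.

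Of these 51 positions, 38 were covered by 10 or more reads in each of the 6 libraries and entered edgeR's quasi-likelihood test on mutated and unmutated reads, adjusted over 32284 positions of the series. All 38 had a positive fitted change, with a median log2 change in the odds of T of 2.83. At the G at 56827839, however, all reads carried T in both reactions, so its fitted value of 0.273 is not a change. Entry took 3 reads with T in an imbalanced library and 1 in a balanced one, so the direction is partly set by the listing. Of the 38 positions, 4 had an adjusted p under 0.05. Over the series, 74.3% of tested positions passed in this direction, with a median log2 change of 3.94. For PEG3, 7 positions had an unadjusted p under 0.05, and 0 fell. With no block for the replicate pairs, 15 positions passed, where the series had 83.5%. DESeq2 called 11 of the 38 and 76.1% of the series, and Fisher's exact test required in every replicate called 0 and 43.3%. Without the depth filter, edgeR called 2 of 51 PEG3 positions and 66.4% of the series. Leaving out replicate 1, 2 or 3 left 1, 0 and 0 PEG3 positions and 55.1%, 58.8% and 56.1% of the series, with 2, 0 and 0 PEG3 positions at an unadjusted p under 0.05. The share for PEG3 was thus below that of the series in each of these fits, and its count changed with the test by more than 1.5 times. These shares are not matched for depth. Of the 32284 tested positions, 28520 had 20 or more reads in all 6 libraries, and 0 of those were in PEG3. The part of depth in the lower share of PEG3 was not tested. On simulated data the fit recovered few of the smallest changes put in, so small changes in PEG3 can be missed. The 4 positions were a G at 56812842 (called site 11), an A at 56812683 in exon 10, and G at 56831177 and 56826807 in intron 2. The last 3 were not called sites because at least 1 replicate had only 2 reads with T.

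Called site 11 was the only one listed under balanced dNTP. It had 3 of 18, 5 of 12 and 3 of 25 reads with T under imbalanced dNTP, and 1 of 33, 0 of 35 and 0 of 49 under balanced dNTP. The ratios of 16.7%, 41.7% and 12% were all above the highest balanced ratio, 3.03%. The call took at least 3 reads with T in each imbalanced library, so at these depths this order was set by the call. The edgeR values of this site rest on the same reads and are no separate support. The log2 change was 4.58 ± 1.64 (SE), with an adjusted p of 0.0085 by edgeR. The A at 56812683 had 10.0%, 23.5% and 14.7% under imbalanced dNTP against at most 1.89%, a log2 change of 4.01 ± 1.61 (SE; edgeR adjusted p = 0.0188). The other 11 called sites had no listed balanced value, and their depth under balanced dNTP is unknown. For 5 of them, another position within 10 nt was listed under balanced dNTP, with a summed depth of 79 to 105 reads over the 3 libraries. At such a depth, 0 reads with T would allow a ratio of up to 2.86% to 3.80%, counting error only.

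The 12 called sites were few for the positions tested. Of 523 PEG3 positions covered by 10 or more reads in each imbalanced library, 2.29% were called (95% Wilson interval 1.32 to 3.97%), and over the series 26.7% of such positions were. Much of the series was deeper than PEG3, where the lowest of the 3 depths never exceeded 27 reads. At positions of the series whose lowest depth lay between 10 and 27, 3.47% were called, which lies within the PEG3 interval. At G in this range, 4.26% of PEG3 positions and 5.12% of the series were called. The called share of PEG3 was therefore near the background at its depth. With the roles of the reactions exchanged, 0 PEG3 positions met the criteria in any replicate. Only the 2 positions of high T had 3 reads with T in a balanced library. All their reads carried T under imbalanced dNTP, so this 0 was set in advance and is no separate check. Wilson intervals and limits on 0 counts cover counting error only.

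Called sites were split evenly between exons and introns. Of 256 exonic positions with sufficient depth, 6 were called (2.34%), and of 267 intronic positions, 6 were called (2.25%). The intronic share of called sites was 50.0% (95% Wilson interval 25.4 to 74.6%). All 6 intronic sites lay in intron 2, from 383 to 7607 nt before its 3′ end, and 0 were closer than 200 nt to a splice site. How many intronic positions of sufficient depth were that close was not counted. This 0 therefore cannot show whether calls were rarer or more frequent there. Site 5 falls in an exon of another annotated PEG3 transcript, and with exons of all transcripts the intronic share was 41.7%. Of the 6 exonic sites, 5 lay in the 3′ UTR within a stretch of 389 nt. The remaining one, site 7, was the second base of codon 971.

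Mutation ratios of the called sites were low to moderate and varied between replicates. Means over the 3 replicates ranged from 13.3% to 27.4%, with a median of 17.1%. Each value rests on 3 to 6 reads with T at a depth of 11 to 38. A call took at least 3 reads with T in each replicate, so lower ratios could not be called at these depths. The ratios are thus not estimates of the level of methylation. Site 2 in intron 2 had the highest mean, with 33.3%, 36.4% and 12.5% in replicates 1, 2 and 3, from 4 of 12, 4 of 11 and 3 of 24 reads. Site 6, the intronic site closest to the 3′ splice site, had 13.8%, 12.5% and 13.5%, from 4 of 29, 3 of 24 and 5 of 37 reads. These sites differed in their means, but the lowest value of site 2 equalled the lowest of site 6.

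Site 5 had the most reads with T, at 3 of 18, 5 of 27 and 6 of 38, and ratios of 16.7%, 18.5% and 15.8%. In the coding sequence, site 7 had 3 reads with T in each replicate, of 24, 17 and 31, and ratios of 12.5%, 17.6% and 9.68%. In the 3′ UTR, site 12 had 15.8%, 25% and 23.8%, and site 9 had 15.8%, 17.4% and 16.1%. The 95% Wilson interval of the pooled ratio was 13.1 to 33.6% at site 12 and 9.66 to 26.6% at site 9, so these sites could not be ranked at this depth.

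The mean ratio over the 6 exonic sites was 16.1%, 22.7% and 14.97% in replicates 1, 2 and 3, and over the 6 intronic sites it was 22.1%, 19.1% and 14.8%. Exons were lower in replicate 1 and higher in replicates 2 and 3, so the classes had no common order over replicates. The plot of called sites shows the spread at each site.

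**Figure D3:**
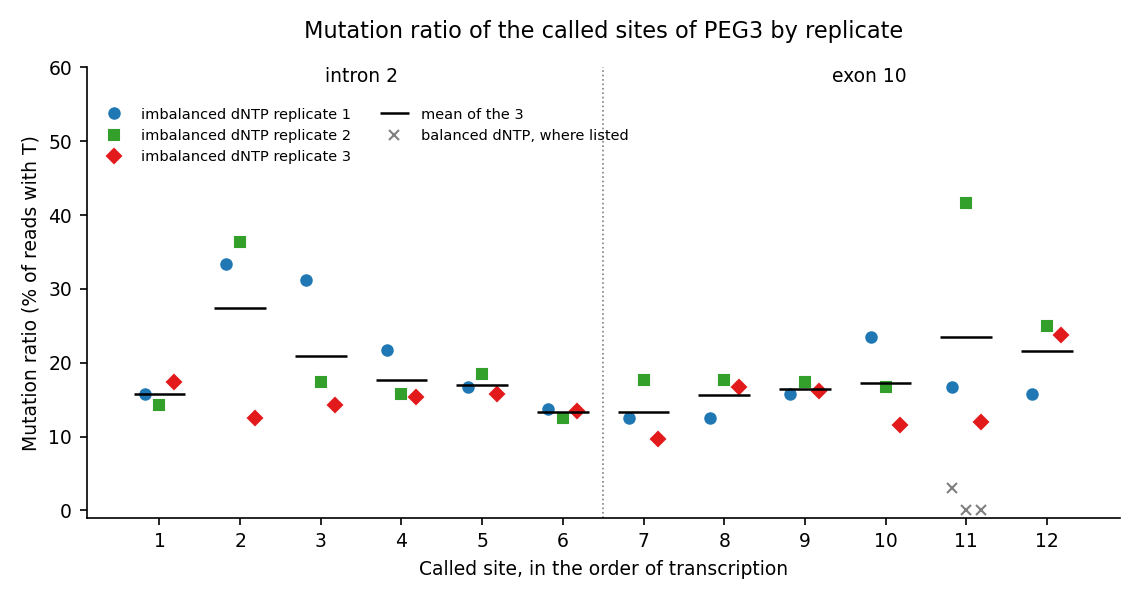
Mutation ratio (percent of reads with T) of the 12 called PEG3 sites in the order of transcription, for imbalanced dNTP replicates 1 to 3 (coloured) with their mean (bar), and for balanced dNTP at the only site listed there (grey crosses). Sites 1 to 6 lie in intron 2 and sites 7 to 12 in exon 10; means range from 13.3% to 27.4%.

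The replicates differed in which positions passed. Replicates 1, 2 and 3 had 250, 185 and 465 PEG3 positions that met the criteria within the replicate, and 66.7% to 70.3% of these had exactly 3 reads with T. G made up 57.2%, 57.8% and 52.9% of them. Replicates 1 and 2 shared 24 positions, 1 and 3 shared 54, and 2 and 3 shared 50. In all, 104 positions passed in at least 2 replicates: 81 G, 12 A and 11 C. Thus G made up 77.9% of positions passing in at least 2 replicates and all of those passing in 3. The depth of a position was partly shared between replicates (Pearson r of log2 depth 0.44 to 0.50 over 837 positions). For the mutation ratio, r was -0.05, -0.02 and -0.08 at 190 positions with 15 or more reads in each library, leaving out the high-T position among them. As 719 of the 837 positions were listed for 3 reads with T in only 1 library, the listing itself can lower this r, and it does not show whether ratios are shared between replicates. Both are descriptions over listed positions, of which 65.5% had another within 10 nt and so shared reads with it.

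The sequence context of G differed between the tables. A U on both sides (UGU) was found at 10.0% of all 7655 G in PEG3 and at 10.7% of the G listed under balanced dNTP, but at 45.5% of those listed under imbalanced dNTP. The share was 69.1% among the 81 G that passed in at least 2 replicates (56 positions) and 66.7% among the 12 called sites. At A, U on both sides was found at 6.05% of all positions, 9.31% of those listed under balanced dNTP and 19.05% of those listed under imbalanced dNTP. At C, the shares were 9.30%, 7.84% and 16.6%. At all 3 bases the imbalanced share was thus above that of the gene, by the widest margin at G. Over the series, at lowest depths of 10 to 27, 61.0% of called G and 36.2% of G not called had U on both sides. In PEG3 these were 66.7% and 48.1%. No test was made, as neighbouring positions share reads.

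**Figure D4:**
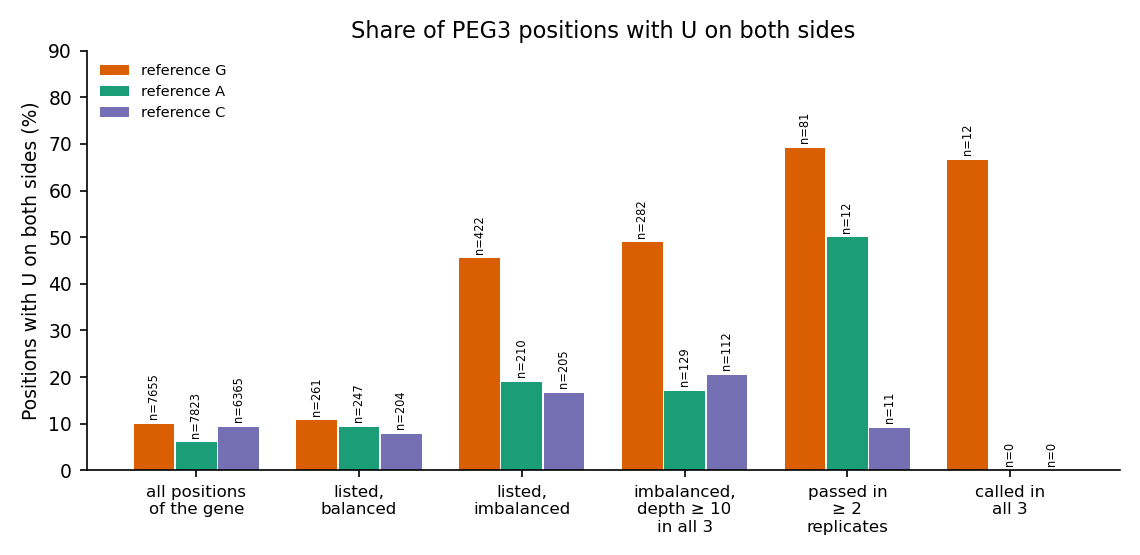
Share of PEG3 positions with U on both sides (percent), by reference base, for all positions of the gene, positions listed in either table, imbalanced positions covered by 10 or more reads in each replicate, and positions that passed in at least 2 or in all 3 replicates; n is the number of positions in each bar. At G the share is 10.0% over the gene, 10.7% among balanced, 45.5% among imbalanced and 66.7% among called positions.

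The signal of the locus was confined, among the stretches examined, to the PEG3 span and strand. On the opposite strand of the span, 0 positions were listed in either table. The next 20 kb before the PEG3 start had 0 on both strands, as did MIMT1 and USP29. ZIM2 contains the whole of PEG3 on the same strand, so all 837 positions and 12 called sites also lie in ZIM2, and the counts cannot be divided between the genes by position. However, the part of ZIM2 beyond PEG3 had 0 listed positions.

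Among imprinted genes, PEG3 was one of those with listed positions. Of 58 names searched, 56 were in the annotation, 11 had positions listed under imbalanced dNTP and 16 had positions in either table. PEG3 and ZIM2 enter these counts with the same positions. The share of all annotated genes with a listed position was not computed, so these counts have no background. Listing takes reads with T, so a gene without listed positions can still be present in caRNA. Called sites were found in 5: KCNQ1OT1 with 82, SNHG14 with 42, PEG3 and ZIM2 with the same 12, and PEG10 with 1. Positions covered by 10 or more reads in each imbalanced library numbered 1957 in KCNQ1OT1, 623 in SNHG14, 523 in PEG3 and 2 in PEG10. The called shares of the first 3 were 4.19%, 6.74% and 2.29%, not matched for depth. At lowest depths of 10 to 27 they were 3.89%, 4.24% and 2.29%, and the differences were not tested. KCNQ1OT1 and SNHG14 are long noncoding RNAs of other imprinted domains, and PEG10 derives from a retrotransposon. Per kb of gene, PEG3 had 27.3 listed positions, KCNQ1OT1 24.1, SNHG14 2.86 and PEG10 1.65. Among 2026 protein-coding genes with a listed position, of which 341 had a called site, PEG3 ranked 31 by listed positions and 115 by called sites.

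PEG3 was next set beside 3 RNAs of different depth. A2M, a secreted protease inhibitor, had a T share of 5.69% ± 0.112 over listed positions, FNDC3B, a membrane protein gene, 10.4% ± 0.598, KCNQ1OT1 8.99% ± 0.718, and PEG3 11.01% ± 0.373 (SD, n = 3). PEG3 was higher than each in 3 of 3 libraries, by 5.31 ± 0.273, 0.644 ± 0.249 and 2.01 ± 0.349 percentage points (exact paired permutation test, two-sided, p = 0.25 for each). Median depths were 35, 31 and 48 in A2M, 15, 14 and 21 in FNDC3B, 18, 16 and 25 in KCNQ1OT1, and 14, 12 and 20 in PEG3. The order of T shares was the reverse of the order of depths, and the part of depth in it was not tested. At lowest depths of 10 to 27, 4.37% of A2M, 3.24% of FNDC3B and 3.89% of KCNQ1OT1 positions were called. The values of FNDC3B and KCNQ1OT1 lay within the Wilson interval of PEG3, and that of A2M lay above it; the difference was not tested.

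The genes most like PEG3 were found by the root mean square difference over 9 values, the T shares of G, A and C in the 3 imbalanced libraries, among 198 protein-coding genes with at least 100 listed positions. ZIM2 had a difference of 0, as it holds the same positions. It was followed by EML4 (0.54 percentage points), FREM1 (0.561), TRIM24 (0.599) and FNDC3B (0.649), where the median over genes was 3.49. EML4 had median depths of 14, 12 and 19 and FREM1 12, 11 and 16, which are close to those of PEG3.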

How the data were processed

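Per the labels and the study's methods, reads were trimmed with Cutadapt, freed of UMI duplicates with BBMap, aligned to hg38 with TopHat2 and piled up with JACUSA; versions are not given in the sources used here. The deposited values are counts: reads with T, with the reference base and in total, per position and library, listed only above a minimum number of reads with T. From these, mutation ratios, calls and shares were computed in Python 3.11.15 with pandas 2.3.3. Exons came from GENCODE release 44, and reference bases matched hg38. Library values were compared by exact paired permutation tests over 3 pairs, and positions by edgeR 4.0.16 (library effects, replicate block, treatment; Benjamini-Hochberg over the series), tested on simulated data. The spread and fold sizes of that simulation were changed after its first runs, which recovered few of the changes put in. Even after this, few changes of the smallest fold size were recovered, so the edgeR count for PEG3 may be a low one. DESeq2 1.42.0 and Fisher's exact test, made two-sided by doubling the smaller tail, were alternatives. Same-numbered libraries came from the same ligated RNA, which is the basis of the pairing. Their deviations correlated (r = 0.746, 0.590 and 0.871 at 24432 positions), but imbalanced 1 with balanced 2 (0.699) and imbalanced 2 with balanced 1 (0.599) did so about as well, so these values set replicate 3 apart and do not by themselves pair replicates 1 and 2. Groups followed the labels. Members, gene lists and tests were chosen with earlier results of these data known. All called sites were named, as there were only 12, with positions of high T under balanced dNTP (at least 0.1 in all 3 libraries), imprinted genes with a called site, and the 5 protein-coding genes most like PEG3. IPW and PEG3-AS1 were not analysed here. The count of positions with 3 reads with T, the depth range of 10 to 27 and the values by base without high-T positions were added after seeing the data.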

Additional observations from a re-analysis of the deposited data

How the results depend on the processing

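The number of called PEG3 sites depended on depth and replication. It was 12 as reported, 12 with 2 or 5 times the input, a ratio of at least 0.05 or pooled input, and 11 with a ratio of at least 0.1. It fell to 1 at a depth of at least 20, to 0 at a depth of at least 50, to 0 with at least 5 reads with T, and to 1 where only positions listed under balanced dNTP were kept. With a replicate left out it ranged from 24 (without replicate 3) to 54 (without replicate 2), with 50 without replicate 1, as fewer replicates had to pass. The unchanged counts of 12 are no separate support for the calls. As 11 of the 12 sites were not listed under balanced dNTP, their input ratio was set to 0. For these 11, another multiple of the input or pooled input could not alter the call. The lowest ratio of a called site in any replicate was 9.68%, so a limit of 0.05 could remove none. The intronic share of called sites was 100% at a depth of at least 20, where it rests on 1 site, and 41.7% to 62.5% otherwise. Leaving out positions within ZIM2 leaves none, a depth of 20 leaves no position listed in both tables, and a depth of 50 leaves none to compare exons with introns, so these alternatives gave no value.

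For edgeR, 4 PEG3 positions passed as reported. Without the replicate block, 15 passed, and without the depth filter 2 of 51. DESeq2 gave 11. Fisher's exact test, required in each replicate, gave 0, with 2, 7 and 1 positions at an unadjusted p under 0.05 in replicates 1, 2 and 3. With a replicate left out, edgeR gave 0 to 1 (1 without replicate 1, and 0 without replicate 2 or 3, where 0 had an unadjusted p under 0.05). With 20 or more reads asked of every library, no PEG3 position was left. The cause of these changes was not tested. The differences between reactions, between exons and introns in T share, and in depth kept the direction of their mean under all alternatives that gave a value, although with the mean of ratios exons had the lower T share in 2 of 3 libraries and not in replicate 2, with an exact p of 0.25 or more throughout.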
